A study of Mus musculus with 2 samples.

Results

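Aqp3, AA467197, Gm13580, Rgcc, Camk2n1 and Tac2 are 6 of the 32285 genes counted in cultures of R1, an established mouse embryonic stem cell line, and none of them encodes a transcription factor. They were selected from the listed symbols because each was far higher in one culture condition, named LBPXRS, than in the other, named LB. The sizes of those rises are therefore a description and were not tested. The selection gave no threshold. Their share of cells, their spread from cell to cell and their co-expression are described for both libraries.

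Both cultures were kept in N2B27 medium with LIF and BMP4 for 72 h and each gave 1 single-cell library. LB held nothing further and was grown on gelatin. LBPXRS also held PD0325901, an inhibitor of the kinase MEK, Xav939, an inhibitor of tankyrase in the WNT pathway, SB431542, an inhibitor of the NODAL and activin receptors, and an agent the labels give as Resorcyclic lactone, and was grown on fibronectin. The 4 added agents and the substrate cannot be told apart, nor can either be told apart from differences between single cultures.

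The kept cells numbered 1783 in LB, with 45490517 UMIs (unique molecular identifiers, each marking a captured RNA molecule), and 2705 in LBPXRS, with 51832444. The median cell held 25418 UMIs in LB and 19058 in LBPXRS. A total of 8 barcodes occurred in both sets of kept cells. The stem cell factor Pou5f1 stood at 719 CPM (UMIs scaled so that each library sums to 1000000) in LB and 990 CPM in LBPXRS, while 7 of 7 measured primitive streak markers and 5 of 5 mesoderm markers were 4-fold or more lower in LBPXRS, where 2.04% of all measured genes were higher by that size and 2.88% lower. Of the other marker lists, 3 of 13 naive pluripotency genes were 4-fold higher, 5 of 7 formative or primed genes lower, 1 of 6 trophoblast genes higher and 3 lower, 1 of 3 primitive endoderm genes higher and 1 of 2 neural genes lower. No gene of the 2-cell-like or fibroblast feeder lists reached 10 CPM. Every streak and mesoderm marker so counted, and the neural gene Nes, reached 10 CPM in LB only. Gata2 and Col4a2, the trophoblast and primitive endoderm genes counted as higher, reached it in LBPXRS only. That minimum favoured the direction of these counts, so nothing is read from them. Because LB held primitive streak-like and mesoderm-like clusters and LBPXRS none so named, each gene is also compared below with the naive pluripotent-like cells of LB. Median log2 differences were -0.63 on chromosome 11 and -0.61 on chromosome 8, and between -0.17 and -0.10 on chromosomes 2, 4, 10 and 14, where the 6 genes lie. With 1 library per condition nothing below has a replicate check, and all intervals (95%, exact) cover counting error only.

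The 6 genes act in different processes. Aqp3 is an aquaglyceroporin, a membrane channel that passes water and glycerol and is best known from skin and kidney collecting duct. AA467197, the mouse counterpart of the human gene NMES1 (C15orf48), encodes a small mitochondrial relative of Ndufa4, a subunit of cytochrome c oxidase, and its RNA also carries the microRNA miR-147. Rgcc was named as a response gene to complement, binds the mitotic kinase CDK1 and is a known p53 target. Camk2n1 encodes a small inhibitor of calcium/calmodulin-dependent kinase II. Tac2 encodes the precursor of the tachykinin neuropeptide neurokinin B. Gm13580 is annotated as an antisense non-coding RNA, and no function is given for it here.

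The 6 genes lie at separate places in the genome (GRCm38, GENCODE vM21). Gm13580 is at chr2:60411525-60412579 on the plus strand and AA467197 at chr2:122636986-122641191 on the plus strand. Aqp3 is at chr4:41092722-41098183 on the minus strand and Camk2n1 at chr4:138454314-138460123 on the plus strand. Tac2 is at chr10:127724478-127731768 on the plus strand and Rgcc at chr14:79288756-79301645 on the minus strand. No 2 of them are neighbours.

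Promoters, taken as 250 bases before to 50 after the start in RefSeq (GRCm38.p6), were found for 5 of the 6 genes. Those of Aqp3, at chr4:41098134-41098433 on the minus strand, and Rgcc, at chr14:79301586-79301885 on the minus strand, are shown because each holds CCACCC or its reverse complement GGGTGG 3 times, and that of Gm13580, at chr2:60411275-60411574 on the plus strand, because it holds none and has the lowest GC share of the 5. Capitals mark every match to the 10 motifs searched on both strands.
Aqp3: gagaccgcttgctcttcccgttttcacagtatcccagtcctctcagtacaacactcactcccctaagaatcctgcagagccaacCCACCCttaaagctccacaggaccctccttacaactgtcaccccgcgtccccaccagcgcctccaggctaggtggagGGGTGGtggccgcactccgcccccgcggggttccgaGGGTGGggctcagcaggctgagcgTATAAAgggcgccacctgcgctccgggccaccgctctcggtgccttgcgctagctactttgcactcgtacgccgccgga
Rgcc: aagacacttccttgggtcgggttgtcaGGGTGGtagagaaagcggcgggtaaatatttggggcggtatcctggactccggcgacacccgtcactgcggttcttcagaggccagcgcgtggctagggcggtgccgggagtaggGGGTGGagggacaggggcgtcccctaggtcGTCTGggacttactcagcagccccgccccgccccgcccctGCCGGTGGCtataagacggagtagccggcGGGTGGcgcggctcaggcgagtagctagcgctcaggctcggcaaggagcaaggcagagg
Gm13580: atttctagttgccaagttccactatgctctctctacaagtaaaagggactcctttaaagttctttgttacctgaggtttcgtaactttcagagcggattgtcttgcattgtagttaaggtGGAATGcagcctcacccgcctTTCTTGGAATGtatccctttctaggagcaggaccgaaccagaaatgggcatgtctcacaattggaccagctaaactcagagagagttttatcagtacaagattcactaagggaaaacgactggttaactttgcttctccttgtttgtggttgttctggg

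CCACCC, letters shared by many sites of the KLF factors, is in 31.6% of all 32544 promoters of this length and was not found in those of AA467197 and Tac2. Aqp3 also holds TATAAA, the TATA box letters, 29 bases before its start, as do 13.6% of promoters somewhere in the window, and Rgcc holds GCCNNNGGC (16.7%) and CAGAC as GTCTG (49.5%). In Gm13580 the capitals are 2 matches of GGAATG (14.6%), one of which runs into TTCNNNGAA (8.33%). AA467197 holds CACGTG (7.17%) and CAGAC, and Tac2 CTTTGAT (3.73%). AGATAA and TCAAGG were not found in the 5. The promoters also differ in base composition, with 64.0% GC in Aqp3 and 66.7% in Rgcc, above 79.6% and 84.9% of all promoters, and 43.3% in Gm13580, above 17.2%. A match is a description of letters only.

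The last exon of AA467197 carries miR-147, whose RefSeq annotation is at chr2:122640814-122640837 on the plus strand. Its 5p form is shown, with the seed (bases 2 to 8) in capitals, because its host RNA is among the largest differences; the microRNA itself was not measured by these 3′ libraries.
mmu-miR-147-5p: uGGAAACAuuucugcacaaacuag

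All 6 genes were rare in LB and found across the LBPXRS culture. The mitochondrial gene AA467197 (ENSMUSG00000033213) had 71 UMIs in LB and 3571 in LBPXRS, or 1.56 CPM (1.22 to 1.97) and 68.9 CPM (66.7 to 71.2), a 44.1-fold difference (34.9 to 56.6). The channel gene Aqp3 (ENSMUSG00000028435) had 130 and 2937 UMIs, or 2.86 CPM (2.39 to 3.39) and 56.7 CPM (54.6 to 58.8), a 19.8-fold difference (16.6 to 23.8). The neuropeptide gene Tac2 (ENSMUSG00000025400) had 16 and 878 UMIs, or 0.352 CPM (0.201 to 0.571) and 16.9 CPM (15.8 to 18.1), a 48.2-fold difference (29.5 to 84.6). The plot of levels by library shows these values, which are those the selection used.

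**Figure D1:**
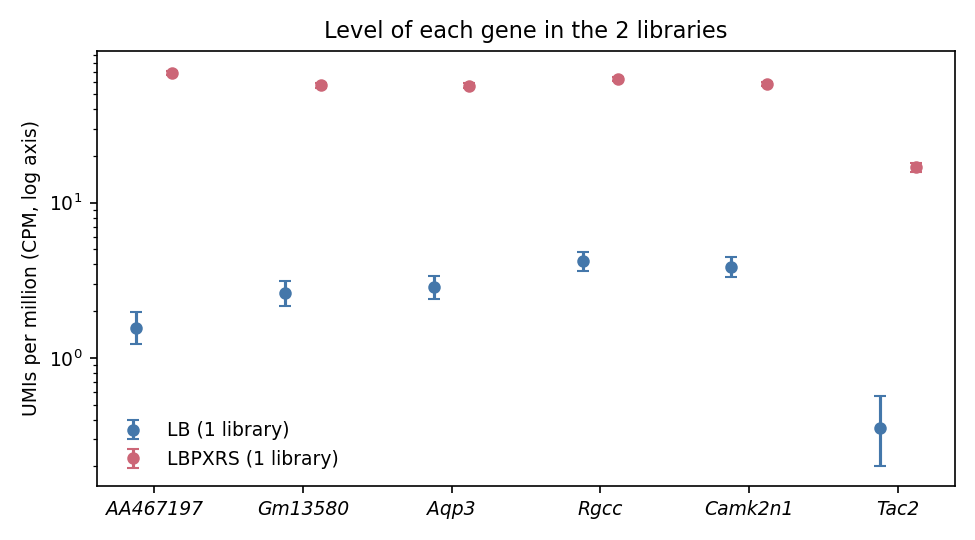
Level of each of the 6 genes in LB (blue) and LBPXRS (red), 1 library each, in CPM on a log axis, with bars for the exact 95% Poisson interval. Each gene lies between 0.352 and 4.20 CPM in LB and between 16.9 and 68.9 CPM in LBPXRS.

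The non-coding Gm13580 (ENSMUSG00000087283) had 119 UMIs in LB and 2964 in LBPXRS, or 2.62 CPM (2.17 to 3.13) and 57.2 CPM (55.1 to 59.3), a 21.9-fold difference (18.2 to 26.5). The CDK1-binding Rgcc (ENSMUSG00000022018) had 191 and 3259 UMIs, or 4.20 CPM (3.62 to 4.84) and 62.9 CPM (60.7 to 65.1), a 14.98-fold difference (12.9 to 17.4). The kinase inhibitor Camk2n1 (ENSMUSG00000046447) had 175 and 3018 UMIs, or 3.85 CPM (3.30 to 4.46) and 58.2 CPM (56.2 to 60.3), a 15.1-fold difference (12.99 to 17.7). These differences too are those for which the genes were chosen.

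On the scale of log2((CPM + 1)/(CPM + 1)), which understates the difference of rare genes, 6 of 6 were at least 4-fold higher in LBPXRS, the direction for which they were chosen, with a median of 3.82. Of the 7661 genes that reached 10 CPM in either library, 156 (2.04%) were higher by this size and 221 (2.88%) lower by it, with a median of -0.17. The count of the 6 follows from their selection, and nothing is read from it. In the order of all rises on that scale AA467197 came at rank 3, Gm13580 at 8, Aqp3 at 10, Tac2 at 15, Rgcc at 19 and Camk2n1 at 21.

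Each gene was also set against 1 kind of LB cell. The LBPXRS counts were the same and the LB cells part of the same library, so higher values here follow in part from the selection. Against the 586 naive pluripotent-like LB cells only, AA467197 was 47.5-fold higher in LBPXRS (31.9 to 74.2), Rgcc 17.9-fold (13.8 to 23.7), Camk2n1 12.8-fold (10.2 to 16.4), Aqp3 12.7-fold (10.1 to 16.2) and Gm13580 12.3-fold (9.80 to 15.6). Tac2 had 6 UMIs in these cells and was 46.7-fold higher (21.4 to 128). The ratio was thus smaller than over all LB cells for Gm13580, Aqp3, Camk2n1 and Tac2 and larger for AA467197 and Rgcc.

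To compare shares of cells at 1 depth, 5000 UMIs were drawn from each cell, leaving out 50 LB and 84 LBPXRS cells with fewer and keeping 1733 and 2621. Of these thinned cells 0.577% in LB (0.277 to 1.06) and 25.3% in LBPXRS (23.7 to 27.0) held AA467197, against 3.87% and 56.0% of cells without thinning. Gm13580 was detected in 1.21% (0.752 to 1.85) and 23.5% (21.9 to 25.1), unthinned 5.50% and 58.4%. Aqp3 was found in 1.27% (0.797 to 1.92) and 19.2% (17.7 to 20.8), unthinned 5.22% and 40.7%. At either depth Aqp3 was seen in fewer LBPXRS cells than AA467197 or Gm13580, and in LB all 3 were seen in few cells.

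Rgcc was detected in 2.08% (1.46 to 2.86) and 24.95% (23.3 to 26.7) of thinned cells in LB and LBPXRS, unthinned 7.74% and 53.7%. Camk2n1 was found in 1.38% (0.889 to 2.05) and 25.1% (23.4 to 26.8), unthinned 7.46% and 59.7%. Tac2 was detected in 1 of 1733 LB cells, or 0.0577% (0.00146 to 0.321), and in 7.78% (6.79 to 8.88) in LBPXRS, unthinned 0.729% and 22.6%. The median thinned LBPXRS cell held 0 UMIs of each gene, so these shares depend on the depth chosen. No LBPXRS cell type known to lack these RNAs was at hand, and the part of free RNA in the shares was not tested.

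Aqp3 had the widest spread between cells of the 6 genes over the whole library, but AA467197 nearly matched it once 3 small clusters were left out. In thinned LBPXRS cells the variance of Aqp3 over its mean (the Fano factor, which is 1 for pure counting noise) was 3.11, rank 37 among 6750 genes with a mean of at least 0.05 UMIs, where the median was 1.04. It was found in fewer cells (19.2%) than a Poisson distribution of the same mean gives (27.3%), and 19 cells held 5 or more UMIs where that distribution gives 0.056. The highest cell held 21 of its 5000 UMIs as Aqp3, and the 262 cells with the most Aqp3 held 71.1% of its UMIs. The same number of top cells held 50.4% for Camk2n1, 58.8% for AA467197 and, since fewer cells than that held it at all, 100% for Tac2.

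AA467197 had a Fano factor of 1.80 (rank 148), with 13 cells at 5 or more UMIs against 0.115 by the Poisson distribution and a highest cell of 10. Rgcc had 1.36 (rank 321), Gm13580 1.18 (rank 685), Tac2 1.17 (rank 704) and Camk2n1 1.11 (rank 1212). Camk2n1 had no thinned cell above 4 UMIs, and its share of cells (25.1%) lay near the Poisson value (26.2%). In LB no gene of the 6 exceeded 2 UMIs in any thinned cell, so their spread at that depth could not be described. Without thinning the highest LB cell held 8 UMIs of Rgcc, 6 of Aqp3 and 4 of Camk2n1. It held 3 of Gm13580, 3 of Tac2 and 2 of AA467197.

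**Figure D2:**
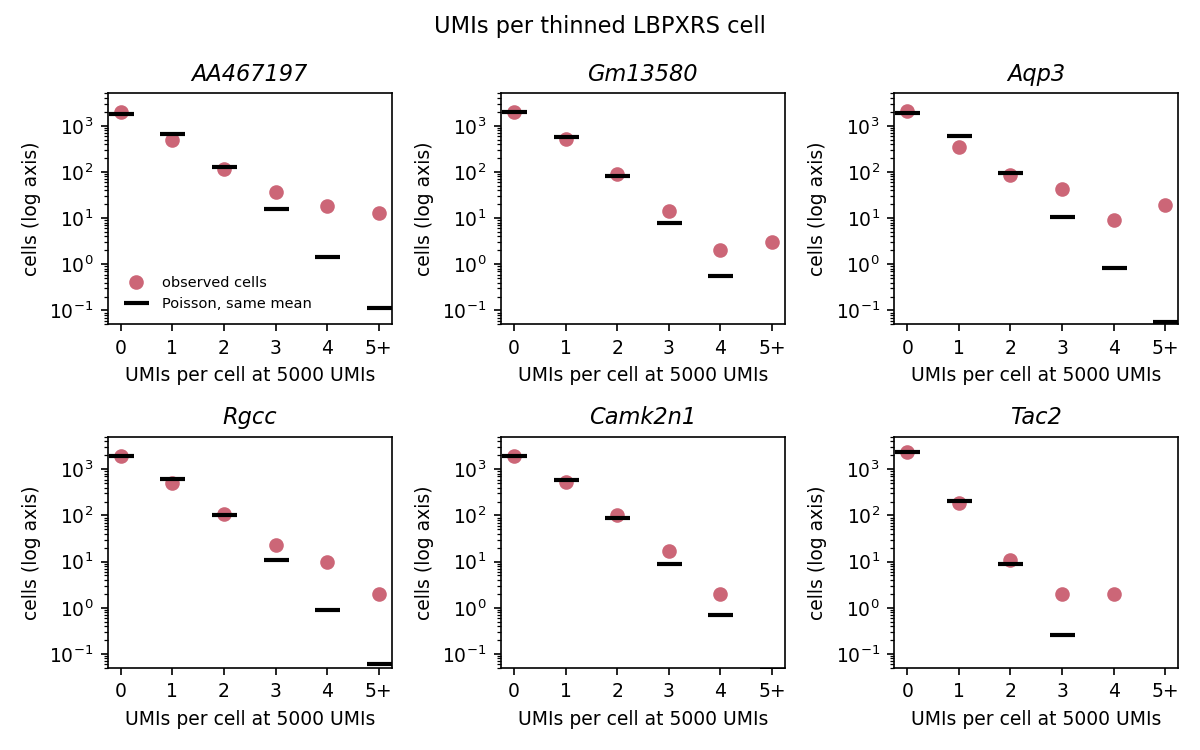
Number of thinned LBPXRS cells (log axis) with 0 to 4 or at least 5 UMIs of each gene, as red points, with black bars for a Poisson distribution of the same mean; classes without a cell and Poisson values under 0.05 are not drawn. Aqp3 and AA467197 depart most, with 19 and 13 cells at 5 or more UMIs, while Camk2n1 and Tac2 have no cell in that class.

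Where in the LBPXRS culture each gene was found was read from clusters built without the 6 genes. None of the 7 clusters matched a marker list, so they are given by number and leading genes. Aqp3 stood at 94.8 CPM (90.3 to 99.5) in cluster 0, whose leading genes included Gata2, Dusp4 and S100a13, and at 24.4 to 29.2 CPM in clusters 1, 2 and 4. It reached 133 CPM (114 to 155) in cluster 3, 69 cells that all had under 0.5% mitochondrial UMIs, and 423 CPM (364 to 489) in cluster 5. Cluster 5 was small, 53 cells led by Pmel, Gla and Hspa5, with a median of 7606 UMIs and 6.99% mitochondrial UMIs, against 2.54% in the whole library. Its cells were 1.96% of the library and held 6.23% of the Aqp3 UMIs, and 8 of its 45 thinned cells were among the 19 with 5 or more.

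Without cluster 5 the Fano factor of Aqp3 was 1.94, its highest cell 9 UMIs and its level 53.6 CPM, and without clusters 3, 5 and 6 the factor was 1.84 and the level 51.5 CPM. AA467197 had factors of 1.80 and 1.84 in the same settings, so that its spread and that of Aqp3 were then nearly equal. The level of Aqp3 therefore did not rest on these clusters, while much of its spread did. These settings were added after the clusters were seen. Cluster 0 alone, with 32.1% of the cells, held 56.2% of the Aqp3 UMIs. Aqp3 also differed with depth. It stood at 88.8 CPM in the shallowest quartile of LBPXRS cells and 50.1 CPM in the deepest. With mitochondrial share it had no single direction (r = 0.02 across cells), being high in cluster 5 and also at 115 CPM in the 168 cells with under 0.5% mitochondrial UMIs against 54.1 CPM in the others. The part of cell quality in its pattern was not tested.

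**Figure D3:**
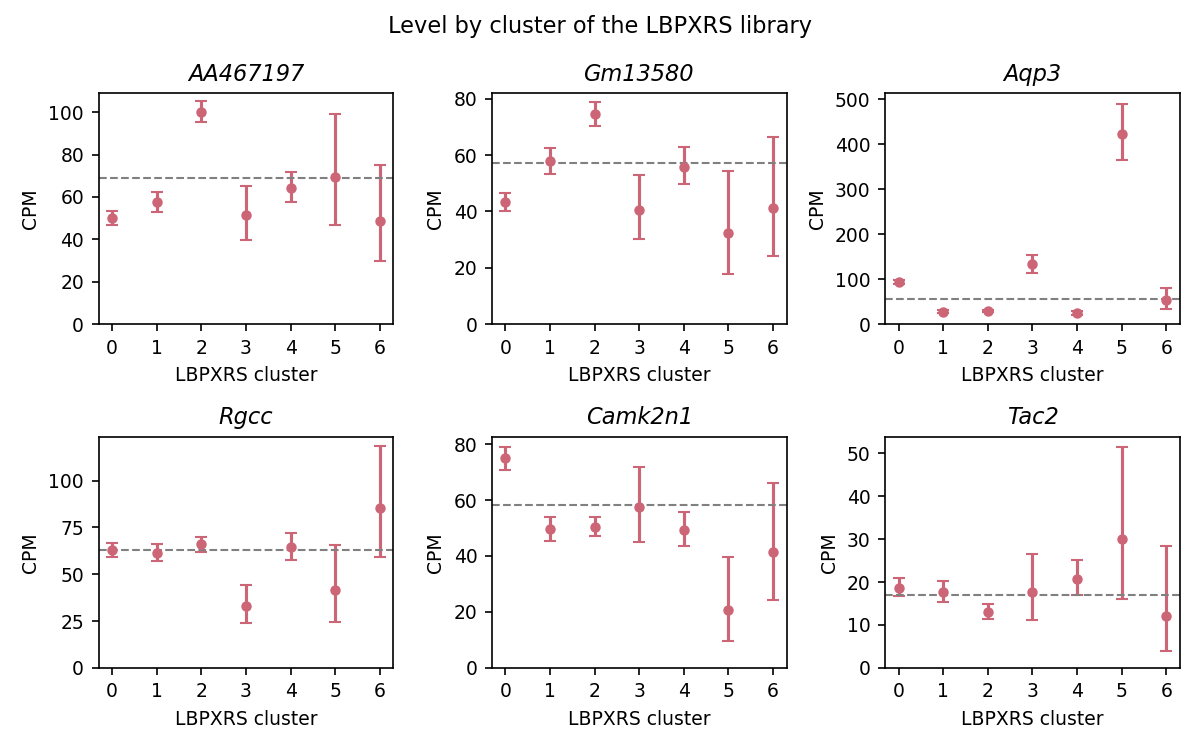
Level of each gene (CPM, own axis from 0 for each panel) in the 7 clusters of the LBPXRS library, with exact 95% Poisson bars and a dashed line at the library's level. Aqp3 spans 24.4 to 423 CPM, or to 133 CPM without cluster 5, whereas the other genes stay within 3.597-fold between their lowest and highest cluster.

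The other genes varied less between clusters, by 2.05-fold for AA467197, 2.30-fold for Gm13580, 2.47-fold for Tac2, 2.59-fold for Rgcc and 3.597-fold for Camk2n1, against 17.3-fold for Aqp3. With finer clusters (Leiden resolution 1) the range grew to 4.46-fold for AA467197, 4.64-fold for Tac2 and 32.1-fold for Aqp3. The range of Aqp3 rested on cluster 5, where 5 cells held 112 of 183 UMIs, and without it was 5.46-fold, against 1.81-fold for Camk2n1 and at most 2.59-fold for the others. Over the 4 largest clusters alone it was 3.88-fold for Aqp3, 1.99-fold for AA467197 and less for the others. At the coarser resolution AA467197 was highest in cluster 2, led by Eprn, Fasn and Aebp2, at 100.01 CPM (95.2 to 105) against 50.1 CPM (46.9 to 53.6) in cluster 0. Among the finer clusters it was highest elsewhere, at 166 CPM (148 to 185) in 128 cells led by Krt8, Krt18 and Krt19. Gm13580 followed the same order, with 74.4 CPM (70.3 to 78.7) in cluster 2 and 43.4 CPM (40.3 to 46.6) in cluster 0. Camk2n1 had the reverse order, with 50.4 CPM (47.0 to 54.0) in cluster 2 and 74.9 CPM (70.9 to 79.1) in cluster 0. These intervals do not overlap, so the 2 largest clusters differed in all 3 genes by more than counting error.

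Rgcc stood at 61.3 to 65.9 CPM with overlapping intervals in the 4 largest clusters, but not in the finer ones, where it was at 78.9 CPM (73.0 to 85.1) in the 382 cells of cluster 5 and 59.0 CPM (53.6 to 64.9) in the 432 cells of cluster 8. Its low value of 32.9 CPM (23.8 to 44.3) came from the low-mitochondrial cluster 3. Tac2 was lower in cluster 2, at 13.1 CPM (11.4 to 14.96), than in clusters 0 and 4, at 18.7 CPM (16.7 to 20.9) and 20.7 CPM (16.95 to 25.05). AA467197 also moved with depth, from 94.3 CPM in the shallowest quartile of cells to 56.4 CPM in the deepest, while Tac2 moved the other way, from 10.9 to 19.8 CPM. Cluster 2 was shallower, with a median of 17381 UMIs, than cluster 0, with 19928, and had a higher median mitochondrial share, 3.18% against 2.21%. AA467197 and Gm13580 correlated with mitochondrial share across LBPXRS cells at 0.13 and 0.12. The parts of depth and mitochondrial share in these contrasts were not tested.

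In LB the few UMIs of these genes were also unevenly placed. Gm13580 was found mostly in 2 clusters, where 77 of its 119 UMIs came from the naive pluripotent-like cells and 34 from the 175 cells of LB cluster 7, an unnamed cluster led by Fabp3, Lrrc31 and Calb2. The primitive streak-like cells held 1 of its UMIs and the mesoderm-like cells 0. After thinning 0 of 328 mesoderm-like cells held it, which limits the share of thinned cells with a UMI to 0.915% by 3 counts and to 1.12% by the exact interval. AA467197 had 2 UMIs in the mesoderm-like cells, 0.238 CPM (0.0288 to 0.859), and 24, 18 and 19 in the naive pluripotent-like, primitive streak-like and formative or primed-like cells. Among the finer LB clusters it was highest, at 6.30 CPM (3.15 to 11.3), in an unnamed cluster of 81 cells led by Dnd1, Rab6b and Lefty1, which held 11 of its 71 UMIs.

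LB cluster 7 made up 9.81% of the LB cells and held 30.3% of the Camk2n1 UMIs, 28.6% of those of Gm13580, 26 of the 130 of Aqp3 and 15.7% of those of Rgcc. Camk2n1 stood there at 12.3 CPM (9.19 to 16.0), against 4.53 CPM (3.57 to 5.68) in the naive pluripotent-like cells and 0.523 CPM (0.142 to 1.34) in the formative or primed-like cells. Aqp3 stood at 6.02 CPM (3.93 to 8.82), 4.47 CPM (3.51 to 5.62) and 0.392 CPM (0.0809 to 1.15) in the same order. Rgcc stood at 6.94 CPM (4.68 to 9.91), 3.51 CPM (2.66 to 4.53) and 2.09 CPM (1.20 to 3.40) in that order, and at 6.29 CPM (4.64 to 8.35) in the primitive streak-like cells. The top 5 cells held 24 of the 48 Rgcc UMIs of the primitive streak-like cells and 12 of the 30 of cluster 7. Its levels there thus rest on few cells. Tac2 was too rare in LB to place, with 7 of its 16 UMIs in the mesoderm-like cells.

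Set against cluster 7 alone, a comparison added after these levels were seen, Camk2n1 was 4.75-fold higher in LBPXRS (3.62 to 6.35), Gm13580 7.27-fold (5.19 to 10.5), Rgcc 9.06-fold (6.33 to 13.4) and Aqp3 9.42-fold (6.41 to 14.4). AA467197 was 37.2-fold higher (18.9 to 86.3). Tac2 had 1 UMI in cluster 7, which gives 73.2-fold with an interval of 13.1 to 2895. Camk2n1 thus came closest to its LBPXRS level in these LB cells.

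In LBPXRS most pairs of the 6 genes were found together in a cell about as often as their separate shares give. There the 15 pairs had Pearson correlations across 2705 cells between -0.09 and 0.16, with a median of 0.005, and in LB between -0.02 and 0.05 across 1783 cells. The cells of a pair share a library and their depth. The highest LBPXRS value belonged to AA467197 and Gm13580 (0.16), but after thinning it was 0.039, and their co-detection in 165 cells lay near the 156 given by the product of their shares. Of 2621 thinned cells 659 held none of the 6 genes, 988 held 1, 671 held 2, 246 held 3, 55 held 4 and 2 held 5, against 627, 1026, 684, 236, 44.0 and 4.12 from the product of the shares.

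In LBPXRS AA467197 and Aqp3 were the pair found together most beyond their shares, in 164 thinned cells where the product of the shares gives 128, a ratio of 1.28. Aqp3 was found in 24.7% of the 664 cells with AA467197 and in 17.4% of the 1957 without it. Their correlation was 0.11, and 0.17 after each cluster was centred on its own mean. Both genes had higher CPM in shallow cells, and in cells thinned to 1 depth the correlation was 0.088. Aqp3 and Tac2 were found together least, in 25 cells against 39.2, a ratio of 0.637. In LB Aqp3 and Camk2n1 were found together in 4 thinned cells where the shares give 0.305, and their correlation was 0.05 over all kept cells and 0.19 after thinning, with Aqp3 in 22 and Camk2n1 in 24 of the thinned LB cells.

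**Figure D4:**
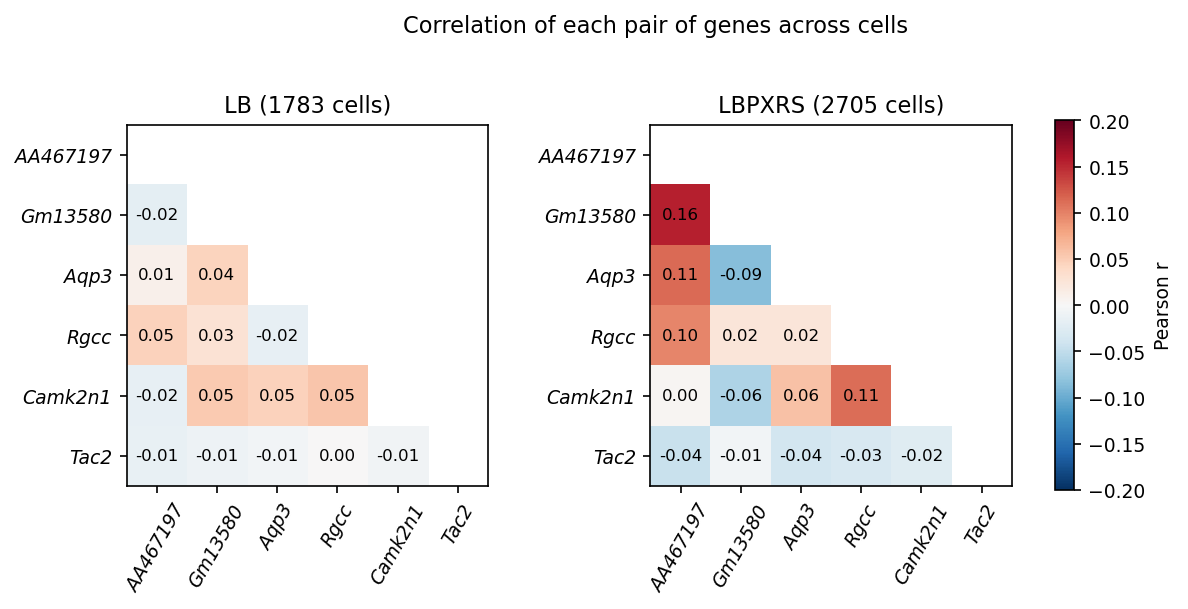
Pearson correlation of each pair of the 6 genes across the kept cells of LB (left) and LBPXRS (right), on ln(1 + UMIs per 10000), with the colour scale from -0.20 to 0.20. In LBPXRS the values run from -0.09 to 0.16 and 3 of 15 exceed 0.1, and in LB none does.

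The genes that varied most like each of the 6 differed from gene to gene. Among 10210 genes found in at least 5% of LBPXRS cells, Aqp3 was closest to S100a13, which encodes a calcium-binding S100 protein (r = 0.49), the fatty acid-binding protein gene Fabp3 (0.44), the NADPH oxidase subunit gene Cyba (0.43), the transcription factor gene Gata2 (0.41) and the apolipoprotein gene Apoe (0.39). In total 80 genes exceeded 0.2, against 11 for AA467197 and 0 for each of the other 4. The lowest values for Aqp3 included the pluripotency genes Zfp42 (-0.34) and Sox2 (-0.32). In LBPXRS cluster 5, where Aqp3 was highest, Gata2 stood at 13.9 CPM and S100a13 at 85.6 CPM, against 26.8 and 84.6 CPM over the library. Fabp3 was higher there than over the library, at 1703 against 879 CPM. S100a13 and Fabp3 were also the closest genes to Aqp3 in LB, at 0.24 and 0.20, and they are the 2 of 5 closest genes that both libraries shared.

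Fabp3 was likewise among the 5 genes closest to Camk2n1 in both libraries, at 0.24 in LB and 0.17 in LBPXRS, and among those closest to Rgcc in LBPXRS (0.15). It was among the 5 genes with the lowest values for Gm13580 (-0.17) and Tac2 (-0.10) in LBPXRS. Fabp3 itself stood at 121 CPM in LB and 879 CPM in LBPXRS, and S100a13 at 11.5 and 84.6 CPM. In LB both were among the 10 leading genes of cluster 7, and in LBPXRS Fabp3 ranged from 529 CPM in cluster 4 to 1789 CPM in cluster 3, with 1703 CPM in cluster 5, where Camk2n1 was lowest. For AA467197, Gm13580, Rgcc and Tac2 no gene was among the 5 closest in both libraries.

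AA467197 was closest in LBPXRS to Gabarapl2 (0.32), which acts in autophagy, the ribosomal protein genes Rpl37a (0.27) and Rps29 (0.27), the mitochondrial adenylate kinase gene Ak4 (0.27) and the translation factor gene Eif2s2 (0.25). Gm13580 shared Ak4 (0.18) and Eif2s2 (0.18) with it, beside Atp5g1 (0.20), Rpl41 (0.19) and the pluripotency factor gene Klf4 (0.17). In LB its closest gene was Crxos (0.30), followed by Jam2, Fam25c, Arl14epl and Prrc1 (0.24 to 0.25), and Klf4 stood at 0.20. Rgcc was closest in LBPXRS to Gpx4 (0.18) and Dppa5a (0.17), Camk2n1 to the ferritin gene Ftl1 (0.19) and Bri3 (0.19), and Tac2 to Rplp0 (0.15) and Nupr1 (0.15). Correlations of this size in sparse counts are given as values only.

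Lists of relatives and partners of the 6 genes are given by counts past 4-fold, which over all genes are 2.04% higher and 2.88% lower, so that a count of 0 in a short list says little. Of 19 other measured genes of cytochrome c oxidase and the NDUFA4 family, 0 were higher by 4-fold in LBPXRS and 2 lower, and their median log2 difference was -0.003, against -0.17 over all genes. Ndufa4, the subunit to which AA467197 is related, had 702 CPM (694 to 710) in LB and 601 CPM (594 to 608) in LBPXRS. The other relative, Ndufa4l2, known as a gene induced in hypoxia, went from 43.0 CPM (41.1 to 44.97) to 1.79 CPM (1.45 to 2.20), a 24.0-fold lower level (19.5 to 29.8). Cox4i2, the subunit isoform also known from low oxygen, was 7.26-fold lower (6.12 to 8.66), while the tissue-restricted isoform gene Cox6b2 was 4.03-fold higher (3.87 to 4.20), or 1.99 on the log2 scale above. Cox6a2, too rare to be among the 19, had 343 UMIs in LBPXRS, or 6.62 CPM, and 0 in LB. Cox5a, a subunit of every cytochrome c oxidase, had a log2 difference of 0.99.

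Among aquaporins Aqp8, a channel for water and hydrogen peroxide, had 207 UMIs in LBPXRS, or 3.99 CPM, against 0 in LB. Aqp5 went from 21 to 68 UMIs, a 2.84-fold difference (1.72 to 4.88), and Aqp11 from 199 to 193. Mip, the aquaporin known from the eye lens, went from 81 to 22 UMIs, 4.20-fold lower (2.59 to 7.06). The aquaglyceroporins Aqp7 and Aqp9, which like Aqp3 pass glycerol, had 10 and 8 UMIs in LB and 8 and 1 in LBPXRS. Gpd2, a mitochondrial enzyme of glycerol phosphate use, was the only other measured gene of that list, with a log2 difference of -1.06.

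For Camk2n1, 0 of 10 other measured genes of the CaM kinase II and calmodulin list were 4-fold different in either direction, with a median of -0.35. Its relative Camk2n2 went from 154 to 253 UMIs, a 1.44-fold difference (1.18 to 1.77), and the kinase genes Camk2b and Camk2g, whose products it inhibits, had log2 differences of 0.04 and -0.51. For Tac2, the other tachykinin genes were nearly absent, with 21 and 10 UMIs of Tac1 and 15 and 1 of Tac4 in LB and LBPXRS. Its receptor gene Tacr3 had 0 UMIs in both libraries. Of the prohormone-processing genes Cpe was 5.11-fold higher in LBPXRS (4.40 to 5.97) and Pcsk6 4.24-fold (3.67 to 4.92), whereas Pam was 4.11-fold lower (3.09 to 5.52). Of the 3 genes of this list that reached 10 CPM besides Tac2, Cpe alone passed 4-fold on the log2 scale, at 2.12, with Pcsk6 at 1.89 and Furin at -0.14. Cpe and Pcsk6 reached 10 CPM in LBPXRS only, so nothing is read from the values of these 3, while Pam, Pcsk5 and Pcsk1, which stayed below it, had log2 differences of -1.43, -1.01 and -0.71.

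For Rgcc, 0 of 10 other measured p53 targets were 4-fold different, with a median of 0.19. Cdkn1a, the best-known p53 target, had a log2 difference of -0.11, and Mdm2 one of 0.55. The mitosis list, to which its partner Cdk1 belongs, had 0 of 11 genes 4-fold different and a median of -0.26, with Cdk1 at 113 CPM in LB and a log2 difference of 0.03. Of 5 measured NF-kB response genes, listed because AA467197 is known from inflammation, 0 were 4-fold different, with Icam1 at 1.57 and Nfkbia at -1.14. Complement genes were mostly below 10 CPM, and the 2 measured ones were not 4-fold different.

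**Figure D5:**
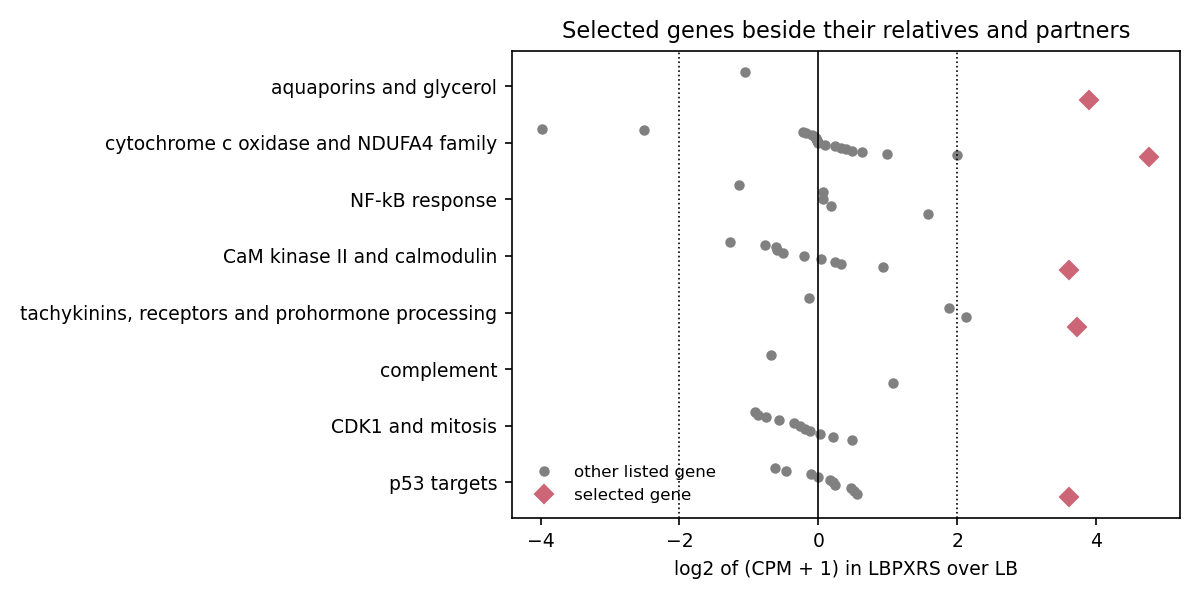
Log2 difference of each measured gene (at least 10 CPM in either library) in 8 lists of relatives and partners, with the selected genes as red diamonds, the other genes as grey points and dotted lines at 4-fold. The selected genes lie between 3.61 and 4.77, and no other measured gene exceeds 2.12. Cox6a2 (2.93) and Aqp8 (2.32), listed but under 10 CPM in both libraries, are not drawn.

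The nearest measured genes were described as well, whatever their distance. Of these 36, 3 on each side of each gene, 0 were 4-fold different (all genes 2.04% higher and 2.88% lower). By sign 20 were higher. Their median log2 difference was 0.07, between -0.82 for Ubap2, 96.13 kb from Aqp3, and 1.86 for Dgkh, 555.98 kb from Rgcc. Some lay close, such as Nol6 at 16.244 kb from Aqp3. Others lay far away, with Slc24a5 at 2426.93 kb from AA467197, Serp2 at 2731.87 kb from Rgcc and Spc25 at 8781.32 kb from Gm13580. The counts therefore do not describe the local surroundings alone. Around Gm13580 the immune receptor genes Ly75, 28.2 kb away, and Cd302 went from 6.09 to 19.4 CPM and from 7.67 to 21.7 CPM. Ly75, Cd302, Dgkh, Serp2, Pink1, Patl2 and Nemp1 reached 10 CPM in LBPXRS only, and Mtrf1 in LB only. The minimum thus favoured the direction of these genes, and nothing is read from it. The closest annotated gene to Gm13580 is Pla2r1, on the opposite strand 4964 bases away, with 15 and 27 UMIs. The strand setting of the counting is not given in the sources used here. No annotated gene overlaps Gm13580 in GENCODE vM21, and the part of strand assignment in its counts was not tested.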

How the data were processed

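The deposited matrices hold UMI counts per gene and barcode, not normalized, made by the authors with Cell Ranger 4.0.0 and the build mm10, per the file headers and the submitters' processing notes. The library chemistry was 10x Genomics 3′ v2, per the labels' protocols. The gene annotation, cell-calling settings and strand setting are not given in the sources used here. Barcodes with under 1000 genes or over 10% mitochondrial UMIs were left out (225 of 2008 in LB, 406 of 3111 in LBPXRS). Scrublet marked 12 and 14 cells (0.673% and 0.518%), which were kept.

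UMIs were summed over the kept cells and scaled to CPM. A pseudocount of 1 CPM, a minimum of 10 CPM in either library and a 4-fold size rule were used. With 1 library per condition no test was made. Intervals are exact at 95% (Poisson for levels, conditional binomial for ratios, Clopper-Pearson for shares), and UMIs are taken as independent molecules, so they cover counting error only. Thinning drew 5000 UMIs per cell without replacement. Correlations use ln(1 + UMIs per 10000). Each library was clustered with scanpy 1.11.5 (2000 variable genes without the 6 genes, 30 components, 15 neighbours, Leiden resolution 0.5). A cluster was named where at least 3 markers of 1 class were raised 2-fold, more than of any other class, with a median log2 difference of at least 1 and no other class ahead among its 10 leading genes. A cluster far shallower than its library was left unnamed where none of its 10 leading genes was a marker of that class. LB cluster 3, with 17 cells, a median of 7767 UMIs and 8 raised primitive endoderm markers, stayed unnamed. Gene identifiers matched GENCODE vM21 for 32235 of 32285 genes.

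The 6 genes, the lists of relatives, the markers and the motifs were chosen with earlier results of these data known. Named genes are the 6, the listed relatives, the 5 closest genes of each by correlation and library among genes found in at least 5% of cells, the nearest genes and the markers; other genes named as leading a cluster were taken from its 10 largest differences. Alternatives changed the pseudocount, scaling, minimum, cell filters, thinning, correlation and clustering. The ratio rule, thinning and correlation were checked on simulated counts.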

Additional observations from a re-analysis of the deposited data

Results flagged for a closer look

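Barcodes left out by the cell filters lie outside the comparisons above and still held the 6 genes in LBPXRS. The 406 such LBPXRS barcodes had a median of 1043 UMIs, and the 225 of LB a median of 1801. Aqp3 stood at 378 CPM (334 to 425) in the LBPXRS set, from 275 UMIs in 62 barcodes, and at 23.0 CPM (13.4 to 36.8) in the LB set, from 17 UMIs in 6 barcodes. Both values exceed those of the kept cells, 56.7 and 2.86 CPM. In the 120 left-out LBPXRS barcodes with over 10% mitochondrial UMIs Aqp3 stood at 555 CPM (488 to 629), and in the 286 with fewer than 1000 genes and no such excess at 98.9 CPM (65.7 to 143). These values go with the 423 CPM of LBPXRS cluster 5, whose cells also had a raised mitochondrial share.

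AA467197 stood at 107 CPM (84.7 to 134) in the left-out LBPXRS barcodes and had 0 UMIs in those of LB, with an exact upper limit of 4.98 CPM. In the left-out LBPXRS barcodes with over 10% mitochondrial UMIs Gm13580 and Camk2n1 each stood at 27.0 CPM (13.9 to 47.1), below the 57.2 and 58.2 CPM of the kept cells, while in those with fewer than 1000 genes they stood at 49.4 CPM (27.0 to 82.9) and 56.5 CPM (32.3 to 91.7). Over all left-out LBPXRS barcodes Rgcc stood at 50.8 CPM (35.8 to 70.0), Camk2n1 at 38.4 CPM (25.5 to 55.6), Gm13580 at 35.7 CPM (23.3 to 52.3) and Tac2 at 16.5 CPM (8.51 to 28.8). In LB the left-out barcodes held 2 UMIs of Rgcc, 3 of Camk2n1, 1 of Gm13580 and 0 of Tac2.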

How the results depend on the processing

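None of the 6 log2 differences reversed under the alternatives run for them, and 6 of 6 genes stayed at least 4-fold higher in each. The alternatives reuse the libraries in which the genes were chosen, so nothing is read from that count. The sign of the median over all genes turned from -0.17 to 0.12 against LB cluster 7, and pair correlations changed sign in 16 of 180 cases, all with a reported size of at most 0.053. The median log2 difference of the 6, 3.82 as reported, was 4.33 with a pseudocount of 0.1 CPM and 3.02 against LB cluster 7 alone, a setting chosen after seeing the data. Single log2 differences ranged from 4.62 to 5.38 for AA467197, 3.04 to 4.26 for Aqp3 and 2.16 to 3.89 for Camk2n1. Genes at least 4-fold higher numbered 150 to 213. Those at least 4-fold lower, 221 as reported, numbered 357 without a minimum CPM, 106 against the naive pluripotent-like LB cells and 85 against LB cluster 7, where 167 and 162 were higher, so that higher genes outnumbered lower ones. TMM scaling (edgeR 4.0.16) moved the median of all genes from -0.17 to -0.007 and gave 194 higher and 197 lower. The 3 LBPXRS pair correlations over 0.1 were 0.032 to 0.088 after thinning. No paired analysis was possible because the conditions share 1 replicate number only. In LB, Tac2 rests on 16 UMIs, which limits its ratio and its placing among clusters.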

Other observations

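Each library held a small cluster with Pmel and A2m among its 10 leading genes and a raised mitochondrial share, LB cluster 4 with 57 cells and 7.15% at the median and LBPXRS cluster 5 with 53 cells and 6.99%. Aqp3 stood at 6.14 CPM (1.67 to 15.7) in the former, from 4 UMIs, and at 423 CPM (364 to 489) in the latter. The 5 cells with the most Aqp3 in LBPXRS cluster 5 held 112 of its 183 UMIs, and 29 of the 53 cells held at least 1. AA467197 had 0 UMIs in LB cluster 4 and stood at 69.4 CPM (46.8 to 99.1) in LBPXRS cluster 5, near its level in the whole library.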
